A study of Homo sapiens with 5 samples.

Results

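Interferon-stimulated genes were followed gene by gene in HCC827/GR cells and their parental HCC827 cells. A fixed list of 45 such genes was looked up by symbol in a table of 37181 gene entries, and where a symbol had several entries the one with the highest mean over the 5 libraries was taken. Of the 45 genes, 43 had an entry of their own name. The values were FPKM, the number of sequenced fragments scaled to the length of the transcript and to the number of mapped fragments, so levels can be set side by side between genes.

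HCC827 is a lung adenocarcinoma line with an EGFR exon 19 deletion, and its cells were labelled gefitinib sensitive. HCC827/GR was raised from it under stepwise increasing gefitinib for more than 6 months and was labelled gefitinib resistant. Both groups carry the same deletion, and the resistant group is a single derived line. The HCC827 libraries were replicates 2 and 3, and the HCC827/GR libraries were replicates 1, 2 and 3. Summed over all entries, they held 138854 and 161943 FPKM in HCC827 and 167722, 144174 and 155071 FPKM in HCC827/GR. Read counts were not used, so the depth behind each value is unknown. The sources do not say whether the replicates were separate cultures, so the p-values measure only the spread between these libraries. Bulk RNA cannot tell fewer expressing cells apart from less RNA per cell.

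Type I and type III interferons bind receptors that carry the kinases JAK1 and TYK2, which phosphorylate STAT proteins such as STAT2. With IRF9 these form the complex ISGF3, which binds a DNA element called the interferon-stimulated response element (ISRE). Interferon gamma acts through JAK1 and JAK2, and its targets carry a second element, the gamma-activated site. The genes switched on encode antiviral effectors, RNA sensors, the ubiquitin-like protein ISG15 with its enzymes, and the transcription factors of the pathway itself. Many epithelial tumour lines keep a low level of this programme without added interferon.

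The ISRE is visible in the promoters of many of the 45 genes. A RefSeq promoter (GRCh38.p14, running from 250 bases ahead of the gene start to 50 bases past it) was found for 38 of them. The letters searched were GAAA, any 2 bases and GAAA on either strand, which 23 of the 38 promoters held (60.5%), against 3.57% of all 35116 promoters. The letters TTC, any 3 bases and GAA, a simple form of the gamma-activated site, were in 11 of the 38 (28.9%), against 7.66% of all promoters. The following 40-base windows show 1 match per gene in capitals, 5′ to 3′ on the strand of the gene, for genes that were lower in HCC827/GR and for genes that were not. IFITM1, IFITM3 and SAMD9 are the promoters with a match among the genes called lower below, DDX60 missed the threshold, and ISG15, BST2 and IFIT1 did not separate the groups.

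IFITM1 (chr11:313985-314024, plus strand): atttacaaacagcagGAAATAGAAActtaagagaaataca

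IFITM3 (chr11:320871-320910, minus strand): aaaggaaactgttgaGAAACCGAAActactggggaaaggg

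SAMD9 (chr7:93118091-93118130, minus strand): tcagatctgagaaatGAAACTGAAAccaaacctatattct

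DDX60 (chr4:168318781-168318820, minus strand): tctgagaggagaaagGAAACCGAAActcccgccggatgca

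ISG15 (chr1:1013375-1013414, plus strand): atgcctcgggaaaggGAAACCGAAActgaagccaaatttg

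BST2 (chr19:17405736-17405775, minus strand): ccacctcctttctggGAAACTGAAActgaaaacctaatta

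IFIT1 (chr10:89392505-89392544, plus strand): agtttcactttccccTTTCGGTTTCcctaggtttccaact

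In IFIT1 the capitals are the same element read on the other strand. The IFITM3 and ISG15 windows share the 10 capital letters with DDX60, and those of SAMD9 match BST2. Apart from SAMD9, each of these genes holds 2 matches, of which 1 is shown. The IFITM1 match not shown, which begins 6 bases ahead of the gene start, has the same 10 letters as SAMD9 and BST2. Of the tested genes, 9 of 15 with a match had a fold change below 0, and 10 of 13 without. The median log2 fold change was -0.26 with a match and -0.17 without. A match is a run of letters and not a measured binding site.

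Most of the 34 interferon-stimulated genes that could be tested were somewhat lower in HCC827/GR, and few were lower by more than the spread between libraries allowed. PARP9, SAMD9, IFITM3 and IFITM1 fell, and no member rose. The 2 groups were compared with limma on log2(FPKM + 1), and p-values were adjusted by the Benjamini-Hochberg method over all 16189 entries whose average reached 0.5 FPKM. At an adjusted p under 0.05, 4 of the 34 were called lower (11.8%), where 5.71% of all tested entries were. The share called higher among all entries was 5.26%. IFITM1 reached the average of 0.5 FPKM only through HCC827, where it was high, so its place among the 34 is not independent of its difference. Without the filter it was not called (adjusted p = 0.0614). With no filter and a pseudocount of 0.1, a fit added after the data were seen, it narrowly was (adjusted p = 0.0493). At an unadjusted p under 0.05, 10 members were lower (29.4%), against 13.8% of all entries, and 2 were higher (5.88%), against 13.4%. The 10 include IFITM1 and OASL, which both reached the filter only through HCC827.

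The median log2 fold change of the 34 genes was -0.23, against 0.00 over all entries, with a range from -1.42 to 1.11. A total of 25 of them lay below 0 (73.5%), against 49.8% of all entries. All 3 HCC827/GR libraries were below both HCC827 libraries for 13 members (38.2%), where 23.4% of all entries had this order. All were above for LGALS3BP and SP110 alone (5.88%), against 22.8% of all entries, and the groups overlapped for the remaining 19. IFITM1, OASL and GBP2 averaged under 0.5 FPKM in HCC827/GR and reached the filter only through HCC827. IFITM1 and OASL are among the 13, and with GBP2 among the 25, so the shares in this paragraph are not fully independent of the filter. With the study's thresholds, which ask for a 2-fold difference, taken here on the log2(FPKM + 1) scale, and an unadjusted p under 0.05, IFITM1, IFI44 and SAMD9L were lower (8.82%), against 3.97% of all entries. DDX60, OASL and OAS1 also had means more than 2-fold apart and an unadjusted p under 0.05, but not a 2-fold change on that scale. No member passed the same thresholds upwards, where 2.96% of all entries did.

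**Figure D1:**
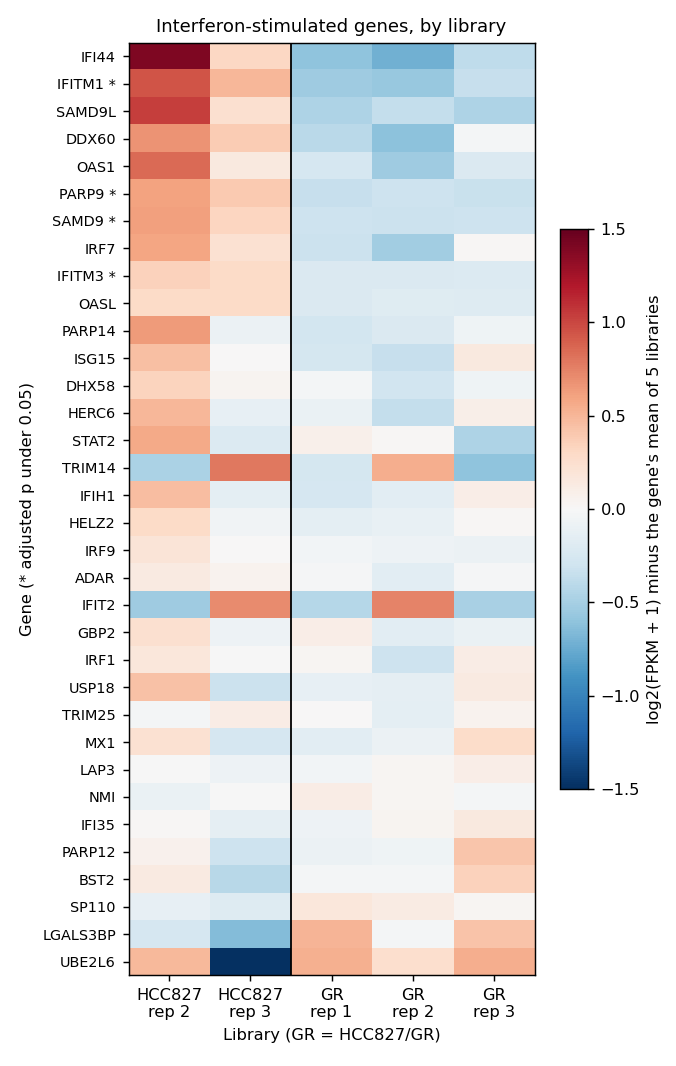
Levels of the 34 tested interferon-stimulated genes in each of the 5 libraries, as the difference of log2(FPKM + 1) from the mean of the 5, with the colour scale clipped at its ends. The first column, HCC827 replicate 2, is above the gene's mean for 27 of the 34 genes, and HCC827/GR replicates 1 and 2 for 8 each.

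The libraries of 1 group did not behave alike. HCC827 replicate 2 was above the gene's own mean for 27 of the 34 members and HCC827 replicate 3 for 17, while HCC827/GR replicates 1, 2 and 3 were above it for 8, 8 and 16. The summed level of the 45 genes was 428 and 327 FPKM in HCC827 and 345, 318 and 374 FPKM in HCC827/GR. HCC827 replicate 3 therefore lay within the range of the resistant libraries in this sum. Without HCC827 replicate 2 the median log2 fold change of the members was -0.087, and without HCC827 replicate 3 it was -0.41.

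**Figure D2:**
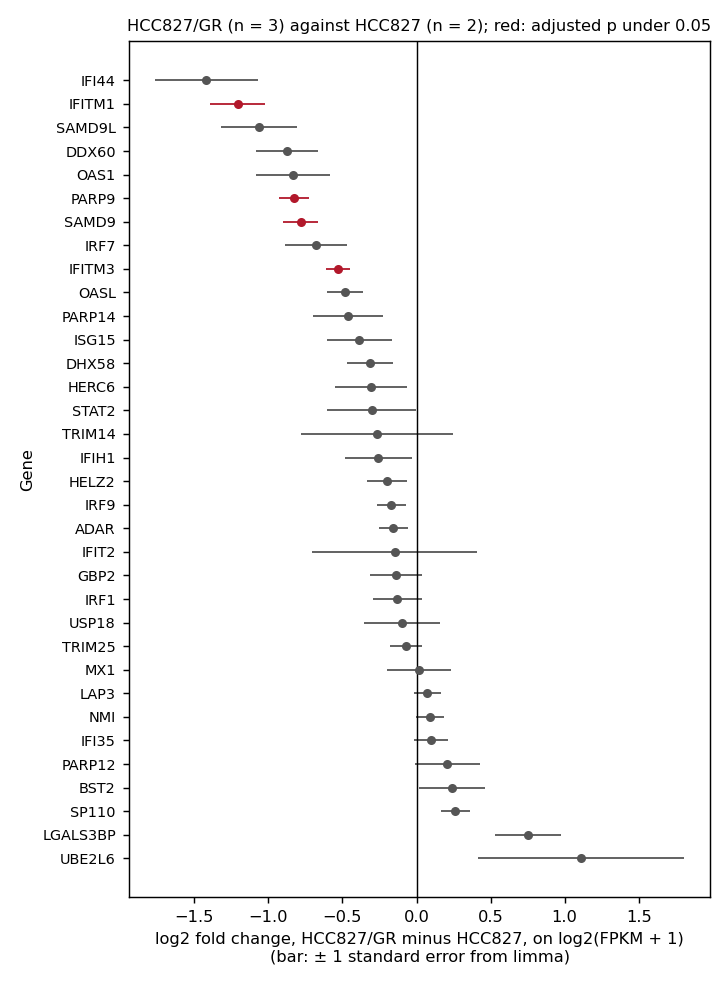
Log2 fold change of HCC827/GR against HCC827 for each tested member, with its standard error, on the log2(FPKM + 1) scale. IFI44 is lowest at -1.42 and UBE2L6 highest at 1.11, with a standard error of 0.694 for UBE2L6 against 0.0811 for IFITM3.

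The IFITM proteins sit in cell and endosome membranes and block the entry of enveloped viruses. IFITM1 (chromosome 11, 313506 to 315272, GENCODE 29, GRCh38) was at 2.40 and 1.51 FPKM in HCC827 and at 0.225, 0.191 and 0.392 FPKM in HCC827/GR. The groups were well apart, with a mean of 1.96 ± 0.634 (SD, n = 2) against 0.269 ± 0.108 (SD, n = 3), or 7.26-fold. The log2 fold change was -1.21 (SE 0.187, adjusted p = 0.0254), and it is smaller than the ratio of the means because the added 1 weighs on low values. The IFITM1 entry also holds 6 transcripts of IFITM2 beside 2 of IFITM1, so the value is that of a joined locus, and IFITM2 has none of its own.

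IFITM3 (chromosome 11, 319669 to 327537) was at 26.5 and 25.6 FPKM in HCC827 and at 17.7, 17.7 and 17.8 FPKM in HCC827/GR. Both groups were tight and did not meet. The mean fell from 26.1 ± 0.632 (SD, n = 2) to 17.8 ± 0.0742 (SD, n = 3), a log2 fold change of -0.53 (SE 0.0811, adjusted p = 0.0251). The IFITM genes are near-identical neighbours, so reads may be shared among them. BST2, or tetherin, which holds budding virus particles at the cell surface, had the highest mean of the members over the 5 libraries, although not within either group. BST2 was at 52.6 and 35.5 FPKM in HCC827 and at 46.6, 47.0 and 60.9 FPKM in HCC827/GR, so the groups overlapped, with a log2 fold change of 0.24 (adjusted p = 0.561).

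SAMD9 and SAMD9L are neighbouring genes on chromosome 7 for large cytoplasmic proteins that restrict poxviruses and cell growth. SAMD9 (93099513 to 93118023) was at 23.5 and 19.1 FPKM in HCC827 and at 11.9, 11.8 and 11.9 FPKM in HCC827/GR. The 3 resistant libraries were almost equal, and the log2 fold change was -0.78 (SE 0.117, adjusted p = 0.0236). SAMD9L (93130055 to 93148369) was at 3.86 and 1.80 FPKM in HCC827 and at 0.727, 0.857 and 0.717 FPKM in HCC827/GR. The groups did not overlap, yet the HCC827 libraries differed from each other by 2.14-fold, and the log2 fold change of -1.06 (SE 0.256) missed the threshold at an adjusted p of 0.0695. Without HCC827 replicate 3 the adjusted p for SAMD9L was 0.0316.

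PARP9 is a member of the ADP-ribosyltransferase family that works with the ubiquitin ligase DTX3L. PARP9 (chromosome 3, 122527924 to 122564577) was at 12.6 and 10.8 FPKM in HCC827 and at 6.08, 6.22 and 6.12 FPKM in HCC827/GR. It had the lowest adjusted p of the members, with a log2 fold change of -0.82 (SE 0.101, adjusted p = 0.0146), and no ISRE letters in its promoter window. PARP14, which lies nearby on the same chromosome, was at 20.4 and 11.9 FPKM in HCC827 and at 10.3, 10.8 and 12.0 FPKM in HCC827/GR. HCC827 replicate 3 was level with the resistant libraries there, and the log2 fold change was -0.46 (adjusted p = 0.291). PARP12 was not called either, with a log2 fold change of 0.21 (adjusted p = 0.603).

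**Figure D3:**
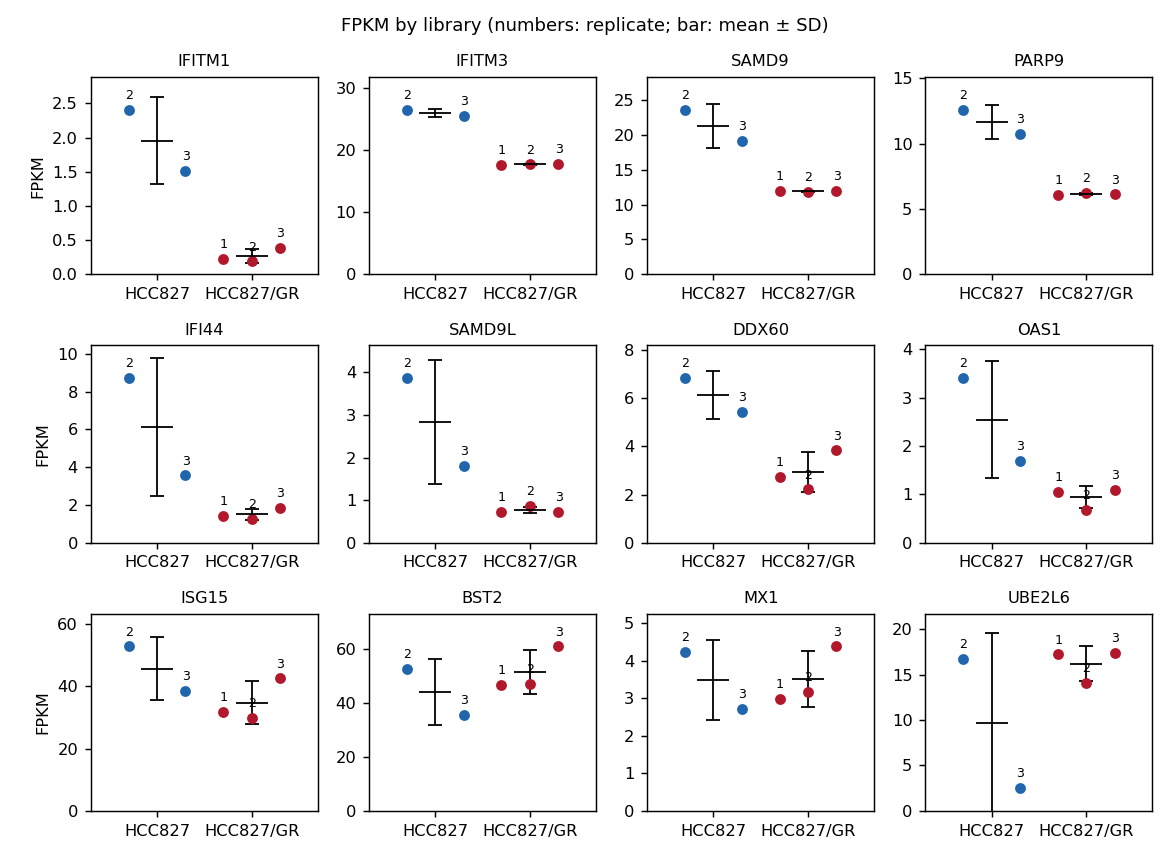
FPKM of 12 interferon-stimulated genes by library, with the replicate number above each point and the mean ± SD of each group (n = 2 for HCC827, n = 3 for HCC827/GR; the lower bar of UBE2L6 runs below the axis). IFITM1, IFITM3, SAMD9 and PARP9 are separated, the last 3 of these with little spread in HCC827/GR, whereas in ISG15, BST2 and MX1 the groups overlap and in UBE2L6 a single HCC827 library stands apart.

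IFI44, a cytoplasmic protein of little known activity, had the lowest fold change of the tested members on the log2(FPKM + 1) scale, while with a pseudocount of 0.1 IFITM1 was lower, at -2.48 against -1.84 for IFI44. IFI44 was at 8.72 and 3.57 FPKM in HCC827 and at 1.44, 1.24 and 1.84 FPKM in HCC827/GR. The means differed 4.08-fold and the groups were separate, with a log2 fold change of -1.42 (SE 0.347, adjusted p = 0.0721, and 0.0377 without HCC827 replicate 3). The entry joins 10 transcripts of the neighbouring IFI44L with 9 of IFI44, so these 2 genes cannot be told apart here.

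Among the antiviral enzymes, the oligoadenylate synthetases bind double-stranded RNA and activate RNase L. OAS1 (chromosome 12, 112906777 to 112933222) was at 3.40 and 1.69 FPKM in HCC827 and at 1.05, 0.682 and 1.09 FPKM in HCC827/GR. The order was complete and the log2 fold change was -0.83 (SE 0.251, adjusted p = 0.116). OASL, a family member without synthetase activity, was at 0.954 and 0.945 FPKM in HCC827 and at 0.376, 0.412 and 0.400 FPKM in HCC827/GR. Its groups were tight and 2.40-fold apart, but at this low level the log2 fold change was -0.48 (adjusted p = 0.0806, and 0.0416 in limma without the trend). Like IFITM1, it reached the filter only through HCC827, and without the filter the adjusted p was 0.157.

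MX1 encodes a dynamin-like GTPase that blocks influenza virus. It was at 4.23 and 2.72 FPKM in HCC827 and at 2.99, 3.17 and 4.38 FPKM in HCC827/GR. The groups overlapped, with HCC827 replicate 3 the lowest library and HCC827/GR replicate 3 the highest, and the log2 fold change was 0.02 (SE 0.215, adjusted p = 0.965). ADAR, the adenosine-to-inosine editing enzyme of double-stranded RNA, was among the abundant members at 48.7 and 45.7 FPKM in HCC827 and 43.6, 39.6 and 43.6 FPKM in HCC827/GR. All 3 resistant libraries were lower by a small margin, with a log2 fold change of -0.16 (SE 0.0966, adjusted p = 0.371).

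The RNA sensors and their helpers were not called. DDX60, a helicase that assists RIG-I, was at 6.83 and 5.42 FPKM in HCC827 and at 2.72, 2.21 and 3.84 FPKM in HCC827/GR. Its groups were apart by 2.09-fold on the means, with a log2 fold change of -0.87 (SE 0.212, adjusted p = 0.0706). IFIH1, or MDA5, the sensor of long double-stranded RNA, was at 3.63 and 2.03 FPKM in HCC827 and at 1.83, 2.02 and 2.61 FPKM in HCC827/GR. The log2 fold change of IFIH1 was -0.26 (SE 0.226, adjusted p = 0.529), with HCC827 replicate 3 inside the resistant range. DHX58, or LGP2, which tunes IFIH1, had a log2 fold change of -0.31 (adjusted p = 0.284).

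TRIM14, an adaptor at the mitochondrial signalling protein MAVS, split the libraries in another way. It was at 3.06 and 8.70 FPKM in HCC827 and at 3.71, 7.20 and 2.71 FPKM in HCC827/GR, so HCC827 replicate 3 and HCC827/GR replicate 2 were high and the other 3 libraries low. IFIT2, which binds viral RNA, had the same split at a lower level, with 0.606 and 2.82 FPKM in HCC827 and 0.727, 2.89 and 0.666 FPKM in HCC827/GR. For TRIM14 the log2 fold change was -0.26 (adjusted p = 0.796), and for IFIT2 it was -0.15 (adjusted p = 0.897). The IFIT2 entry holds 3 transcripts of IFIT2 and 2 of AL353751.1.

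The ISG15 system attaches a small ubiquitin-like protein to other proteins. ISG15 itself was at 52.8 and 38.6 FPKM in HCC827 and at 31.7, 29.8 and 42.6 FPKM in HCC827/GR. The means were 45.7 ± 10.1 (SD, n = 2) and 34.7 ± 6.88 (SD, n = 3), the ranges overlapped, and the log2 fold change was -0.39 (SE 0.22, adjusted p = 0.335). UBE2L6, the conjugating enzyme for ISG15, was at 16.7 and 2.55 FPKM in HCC827 and at 17.2, 14.0 and 17.4 FPKM in HCC827/GR. HCC827 replicate 3 alone was low, and it decided the log2 fold change of 1.11 (SE 0.694, adjusted p = 0.375). Without HCC827 replicate 2 it was 2.27 (adjusted p = 0.0324), and without HCC827 replicate 3 it was -0.046. USP18, which removes ISG15 and dampens receptor signalling, HERC6, a HERC-family ubiquitin ligase, and TRIM25, a ligase that acts on RIG-I, had log2 fold changes of -0.10, -0.31 and -0.07, and none was called.

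Among the transcription factors of the pathway, IRF7, the amplifier of type I interferon production, was at 4.20 and 3.05 FPKM in HCC827 and at 1.77, 1.42 and 2.51 FPKM in HCC827/GR. Its groups were separate, with a log2 fold change of -0.68 (SE 0.21, adjusted p = 0.122). STAT2 was at 16.8 and 9.34 FPKM in HCC827 and at 11.6, 11.1 and 7.71 FPKM in HCC827/GR. The HCC827 libraries of STAT2 lay on both sides of 2 resistant ones, with a log2 fold change of -0.30 (SE 0.299, adjusted p = 0.58).

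IRF9, the DNA-binding partner of STAT2, was at 8.62 and 7.41 FPKM in HCC827 and at 7.16, 6.95 and 6.88 FPKM in HCC827/GR. The step was small, with a log2 fold change of -0.17 (SE 0.0995, adjusted p = 0.35), and the entry also holds 19 transcripts of RNF31 beside 15 of IRF9. IRF1, the factor most tied to interferon gamma, was at 3.47 and 2.95 FPKM in HCC827 and at 3.07, 2.22 and 3.32 FPKM in HCC827/GR. Its groups overlapped, with a log2 fold change of -0.13 (SE 0.164, adjusted p = 0.673). HELZ2, a helicase and nuclear receptor coactivator, had a log2 fold change of -0.20 (adjusted p = 0.416).

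The 2 members with all resistant libraries higher were not called. LGALS3BP, a secreted glycoprotein that binds galectins, was at 36.3 and 27.5 FPKM in HCC827 and at 62.4, 42.5 and 58.9 FPKM in HCC827/GR. The log2 fold change of LGALS3BP was 0.75 (SE 0.223, adjusted p = 0.111). SP110, a nuclear body protein, was at 1.83 and 1.69 FPKM in HCC827 and at 2.45, 2.35 and 2.13 FPKM in HCC827/GR, with a log2 fold change of 0.26 (adjusted p = 0.178). The STAT-interacting proteins NMI and IFI35, the peptidase LAP3 and the guanylate-binding protein GBP2 had log2 fold changes of 0.09, 0.10, 0.07 and -0.14, and their groups overlapped. GBP2 rests on 1 assembled transcript with no Ensembl identifier, and it reached the filter only through HCC827.

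The HCC827 libraries differed from each other mostly in 1 direction for these genes. HCC827 replicate 2 was above replicate 3 in 30 of the 34 tested members (88.2%), where 50.4% of all entries were. The median difference was 0.32 on the log2(FPKM + 1) scale, against 0.00 over all entries. A difference past a fold of 2 in either direction was found for 4 members (11.8%), against 7.81% of all entries. These were UBE2L6 and IFI44, higher in replicate 2 by 2.32 and 1.09, and TRIM14 and IFIT2, lower in replicate 2, with differences of -1.26 and -1.25. With 1 library on each side, these differences carry no test.

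**Figure D4:**
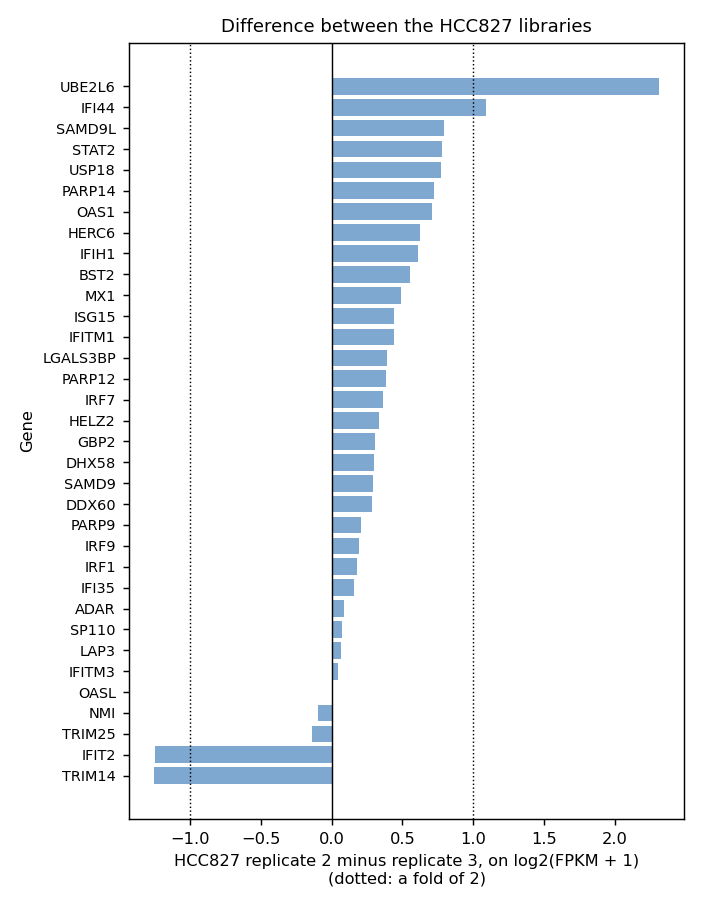
Difference between HCC827 replicate 2 and replicate 3 for each tested member, on the log2(FPKM + 1) scale, with no error bar because each side is 1 library. Positive values mean higher in replicate 2, as for 30 of the 34 members, and UBE2L6 at 2.32 and TRIM14 at -1.26 are the ends.

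The same library was the highest of all 5 for 22 of the 34 members (64.7%), against 24.7% of all entries. Within HCC827/GR, replicate 3 was the highest of its group for 21 members (61.8%), against 31.2% of all entries, and replicate 2 the lowest for 16 (47.1%), against 32.4%. The median log2(FPKM + 1) over all entries was 1.87 and 1.86 in HCC827 and 1.88, 1.85 and 1.83 in HCC827/GR. The cause of the members' order among the libraries was not tested.

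Of the 45 genes, 9 were listed below a mean of 0.5 FPKM and were not tested. They include genes that respond strongly to interferon in many cells. RSAD2, or viperin, which makes a chain-terminating nucleotide, was at 0.448 and 0.239 FPKM in HCC827 and at 0.0201, 0.0204 and 0.0351 FPKM in HCC827/GR, a ratio of the means of 13.6. CMPK2, the kinase beside it, was at 0.373 and 0.316 FPKM in HCC827 and its mean was 5.53-fold lower in HCC827/GR. The annotated ends of RSAD2 and CMPK2 overlap on opposite strands of chromosome 2, so their reads may be shared.

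IFI27, a small mitochondrial protein, was at 1.10 and 0.502 FPKM in HCC827 and at 0.128, 0.127 and 0.0887 FPKM in HCC827/GR. EPSTI1 and the exonuclease ISG20 also had all resistant libraries lower, with means 2.24-fold and 1.75-fold apart. The chemokine CXCL10, which attracts T cells, was at 0.127 and 0.107 FPKM in HCC827 and was listed at 0 in all 3 HCC827/GR libraries. GBP4 did not exceed 0.0406 FPKM in any library.

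IFIT1, which recognises foreign RNA caps, was at 0.316 and 0.0962 FPKM in HCC827 and at 0.308, 0.106 and 0.160 FPKM in HCC827/GR. IFIT3, its partner, was at 0.449 and 0.0151 FPKM in HCC827 and at 0.663, 0.272 and 0.142 FPKM in HCC827/GR. The resistant values of IFIT1 lay inside the parental range, and those of IFIT3 reached above it. Of the 9 low members, 7 had all resistant libraries below both HCC827 libraries (77.8%), and IFIT1 and IFIT3 overlapped. Of the 13750 untested entries with a mean in the range of these 9 genes, from 0.0204 to 0.454 FPKM, 17.5% had that order.

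**Figure D5:**
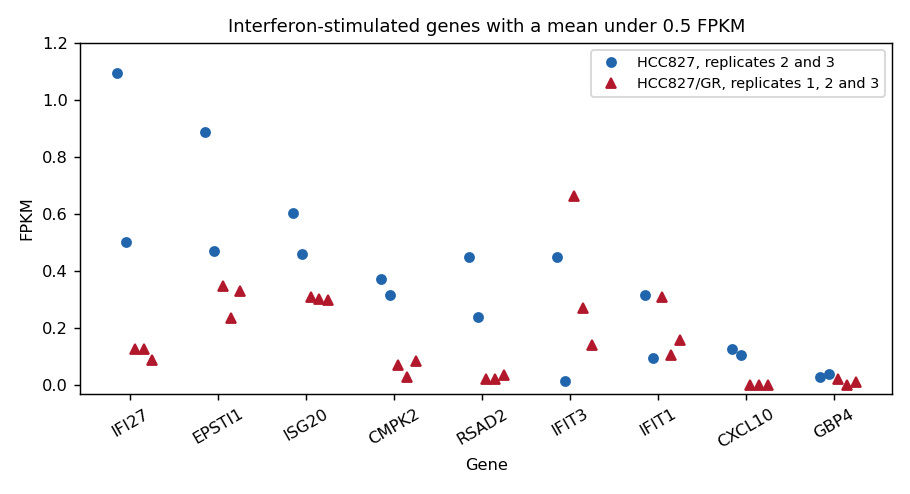
FPKM of the 9 interferon-stimulated genes below a mean of 0.5 FPKM, by library. RSAD2, CMPK2, IFI27 and CXCL10 are higher in both HCC827 libraries than in every HCC827/GR library, and IFIT1 and IFIT3 overlap.

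The genes upstream of the interferon-stimulated genes were read from a list of 27 ligands, receptors, kinases and regulators. Over its 16 tested members the median log2 fold change was -0.01, and IRF3 fell and IRF5 rose, where 5.71% of all entries were lower and 5.26% higher. Leaving out any library ended every call in the list. IRF3, which starts interferon transcription, was at 16.1 and 15.1 FPKM in HCC827 and at 10.1, 9.86 and 11.0 FPKM in HCC827/GR, a log2 fold change of -0.55 (SE 0.0948, adjusted p = 0.0325). IRF5, a related factor best known in myeloid cells, was at 1.59 and 1.79 FPKM in HCC827 and at 3.23, 3.15 and 3.55 FPKM in HCC827/GR, a log2 fold change of 0.68 (SE 0.0989, adjusted p = 0.022).

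The receptors and kinases were expressed in both groups and none was called. The log2 fold change was -0.01 for IFNAR1, 0.20 for IFNGR1, 0.52 for IFNGR2 and -0.23 for IFNLR1. It was -0.22 for IL10RB, whose entry also holds IFNAR2. JAK1 was at 39.5 and 27.8 FPKM in HCC827 and at 66.3, 41.6 and 64.9 FPKM in HCC827/GR, a log2 fold change of 0.75 (SE 0.275, adjusted p = 0.17), and those of JAK2 and TYK2 were -0.11 and 0.08. Of the ligands, IFNB1 was at 0.0434 and 0.0489 FPKM in HCC827 and listed at 0 in the 3 resistant libraries, and IFNL1 was listed at 0 in all 5.

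Of 12 genes of nucleic acid sensing, 11 were tested, 2 fell, none rose, and the median log2 fold change was 0.01, beside 5.71% of all entries lower and 5.26% higher. Both falls were lost without the filter, without limma's trend, under the Ballgown model, with the replicate number as a block and whenever a library was left out. TLR3, an endosomal receptor of double-stranded RNA, came nearest to a call upwards, with a log2 fold change of 0.60 (adjusted p = 0.0519). TBK1, the kinase that activates IRF3, was at 59.9 and 51.5 FPKM in HCC827 and at 35.8, 39.1 and 34.2 FPKM in HCC827/GR, a log2 fold change of -0.60 (SE 0.117, adjusted p = 0.0425). MYD88, the adaptor of Toll-like receptors, was at 9.45 and 8.66 FPKM in HCC827 and at 6.18, 6.41 and 6.03 FPKM in HCC827/GR, a log2 fold change of -0.48 (SE 0.0899, adjusted p = 0.0388).

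A further list of 37 interferon-stimulated genes outside the 45 held 27 that could be tested, with a median log2 fold change of -0.03. OAS3, PLSCR1 and RARRES3 fell and IFI16 rose, to be read against the same 5.71% and 5.26% of all entries. None of the 4 was called under the Ballgown model or with the replicate number as a block. Without the filter OAS3 and PLSCR1 were not called (limma, adjusted p = 0.0768 and 0.0519). Leaving out any library ended the calls of OAS3 and IFI16. All 4 kept their direction under every alternative. OAS3, the largest oligoadenylate synthetase, was at 18.4 and 14.1 FPKM in HCC827 and at 7.15, 6.19 and 9.09 FPKM in HCC827/GR, a log2 fold change of -1.03 (SE 0.197, adjusted p = 0.0408). PLSCR1, a phospholipid scramblase, and RARRES3, a phospholipase, changed by -0.82 (adjusted p = 0.029) and -1.42 (adjusted p = 0.0206) on the log2 scale. IFI16, a nuclear DNA sensor, was at 9.84 and 9.89 FPKM in HCC827 and at 14.4, 14.5 and 14.3 FPKM in HCC827/GR, a log2 fold change of 0.51 (SE 0.0799, adjusted p = 0.0268). The ISRE letters were in 15 of 27 promoters matched for this list.

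The labelled cell type was checked with lists of markers. Of 6 tested epithelial markers, 5 were lower in HCC827/GR, led by EPCAM at 86.9 and 72.6 FPKM in HCC827 and 7.32, 10.8 and 8.53 FPKM in HCC827/GR (log2 fold change -3.04, adjusted p = 0.00349). KRT18, the most abundant epithelial marker, was lower too, and the epithelial markers summed to 1068 and 1186 FPKM in HCC827 and 544, 573 and 443 FPKM in HCC827/GR. Their part in the levels of the interferon-stimulated genes was not tested. Of 10 leukocyte markers, 7 were listed and 1 was tested, and they summed to 31.2 and 39.3 FPKM in HCC827 and 35.0, 33.2 and 38.6 FPKM in HCC827/GR. Nearly all of that sum was CD68, whose entry joins EIF4A1 and other neighbours, while the pan-leukocyte marker PTPRC did not exceed 0.0228 FPKM. Of 8 stromal and endothelial markers, 2 were tested and PECAM1 was called lower, and the 8 summed to 5.33 and 4.04 FPKM in HCC827 and 1.19, 1.04 and 0.757 FPKM in HCC827/GR. PECAM1, whose entry is 1 assembled transcript with no Ensembl identifier, made that difference, at 4.34 and 3.32 FPKM in HCC827 and listed at 0 in HCC827/GR. PECAM1 thus reached the filter only through HCC827. Without it the sums were 0.985 and 0.728 FPKM in HCC827 and 1.19, 1.04 and 0.757 FPKM in HCC827/GR, most of it COL1A1. PDGFRB, a pericyte and fibroblast receptor, was at 0.00777 and 0.0147 FPKM in HCC827 and at 0.278, 0.184 and 0.184 FPKM in HCC827/GR, below the level for a test.

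The 4 calls among the members changed with the model and with the libraries. With the study's own kind of model, fitted entry by entry, no member was called (adjusted p from 0.149 to 0.274 for the 4). At an unadjusted p under 0.05 in either direction were 6 of 34 (17.6%), close to the 17.2% of all entries. Of these 6 members, 5 were lower (14.7%) and 1 was higher (2.94%). The share of all entries was not split by direction in that model. Leaving out HCC827 replicate 2 or any HCC827/GR library ended all 4 calls, with adjusted p from 0.0509 to 0.0915. In those fits the log2 fold change was from -0.83 to -0.72 for PARP9, from -0.78 to -0.64 for SAMD9, from -0.53 to -0.50 for IFITM3 and from -1.27 to -0.99 for IFITM1. Calls became fewer over all entries too. Without an HCC827/GR library 1.77% to 2.95% of all entries were called lower, against 5.71% with every library.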

How the data were processed

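The deposited gene table gives FPKM for RNA-seq of 5 HCC827 and HCC827/GR libraries. The authors trimmed reads with Cutadapt, aligned them (Bowtie2, TopHat2), and obtained FPKM through StringTie and Ballgown. The submitters' notes name hg18, and the table holds no coordinates. The GEO protocol describes a small RNA library and the study's methods an mRNA library, and which was used is unresolved. Of the FPKM columns, 1 matched no sample and was left out.

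Gene positions came from GENCODE 29 (GRCh38) through Ensembl transcript identifiers (135164 of 135299 found). Values were compared as log2(FPKM + 1) with limma 3.58.1 (two-sided, lmFit, then eBayes with its trend option) in R 4.3.3, over entries whose average reached 0.5 FPKM, after the code was tested on simulated data. Other steps ran in Python 3.11.15 (pandas 2.3.3, numpy 2.4.6), with plots in matplotlib 3.10.9. Fold changes on this scale understate the change of low genes.

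Values in every library were given for members with an adjusted p under 0.05, the 10 with the largest fold change, the 6 with the largest difference between the HCC827 libraries, and a fixed set of pathway genes. One gene that this rule names is not reported here. The members and lists were chosen with earlier results of these data known. The alternatives were other pseudocounts, filters, scalings and models, summed entries, the replicate number as a block, and leaving out each library.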

Additional observations from a re-analysis of the deposited data

How the results depend on the processing

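The members' median log2 fold change kept its sign under every alternative run, from -0.41 to -0.087 over the fits that left out a library, in which 0 to 5 members were lower and 0 to 1 higher. Over all entries those fits called 287 to 477 lower and 202 to 485 higher. Without HCC827 replicate 3, IFITM3 was lost (adjusted p = 0.067) and IFI44 and SAMD9L were gained. The entry-by-entry Ballgown model called 0 members lower (limma 4) and 9 lower and 6 higher of all entries. Without a filter, 5 of 43 members were lower, with 757 lower (2.10%) and 504 higher of 36011 entries, and IFITM1 was not called (adjusted p = 0.0614). Without the trend 5 members were lower (5.49% of all entries), with OASL gained (adjusted p = 0.0416), which reached the filter only through HCC827.

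The replicate number as a block called 0 members and 0 of all entries in limma. At an unadjusted p under 0.05 in either direction were 5 of 34 members (14.7%) and 3545 of 16189 entries. This was a lower share of the members than of all entries. Of the members, 5 were lower and 0 higher, and the entries were not split by direction in this fit. The block gives HCC827/GR replicate 1 its own term. The difference of replicate 2 from 3 in HCC827 was hardly correlated with that in HCC827/GR (r = 0.0274 across 16189 entries). This single contrast leaves out replicate 1 and cannot show whether libraries of 1 number shared a culture or a day.

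The pathway list had 1 lower call without a filter, with a pseudocount of 0.1 and no filter (added after the data were seen), with quantile normalization and without the trend. The sensing list had 0 lower under these, except 1 lower and 1 higher with quantile normalization. The other interferon-stimulated genes had 1 lower without a filter and 2 higher with quantile normalization. All 3 lists had 0 calls under the Ballgown model and the block, and leaving out a library gave 0 lower and 0 higher for the pathway, 0 lower and 0 to 1 higher for sensing, and 0 to 2 lower and 0 higher for the others.

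Uncalled members that changed sign were MX1 (-0.17) and PARP12 (-0.019) under the Ballgown model and IFIT2 (0.039) under the block. Over the fits that left out a library, the lowest and highest log2 fold changes were -0.77 and 0.48 for IFIT2, -0.23 and 0.26 for MX1, -0.69 and 0.088 for STAT2, -0.042 and 0.52 for BST2, -0.48 and 0.29 for USP18, -0.62 and 0.0051 for HERC6, -0.046 and 2.27 for UBE2L6, -0.89 and 0.36 for TRIM14, -0.56 and 0.048 for IFIH1, and -0.29 and 0.018 for GBP2. For all 10 these ends came from leaving out an HCC827 library. The cause was not tested. Read depth is unknown, and members under 0.5 FPKM were tested only without the filter, where CXCL10 and CMPK2 passed (limma, adjusted p = 0.028 and 0.0495), and CMPK2 did not with a pseudocount of 0.1 as well (adjusted p = 0.112).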
